A study of Mus musculus with 6 samples.

Results

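The complement system was examined through 9 genes, measured with 12 of the 41174 probes of an Agilent mouse array. The genes were chosen by symbol, with earlier results of these data known. C3, C4b, C1s, C1ra and Cfb encode complement components, and Serping1, Cd55, Cd59a and Cd46 encode inhibitors. The array files give a transcript accession for each probe, and each of the 9 symbols was reached through it (C1s as C1s1). RNA came from 6 primary lines grown from lung tumours of C57BL/6J mice with conditional alleles written as Rb1L/L, Trp53L/L, a model of small cell lung carcinoma. Non-SMC and SMC are the names of the groups in the labels, which do not spell them out, and each group holds 3 lines. The labels join the lines in pairs of 1 non-SMC and 1 SMC line, and pairs 1 and 3 are female and pair 2 male. All lines thus share the mouse strain, the targeted alleles and culture in RPMI 1640 with serum, and the labels name no treatment. Each line is a single culture on a single array, so p-values measure the spread between 3 pairs of lines.

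Complement is a cascade of plasma proteases that tags surfaces and forms pores in membranes. In the classical pathway the protease C1r activates the protease C1s within the C1 complex, and C1s cuts C4 and C2. All pathways meet at C3, and factor B joins C3b in the convertase that amplifies the response. C1 inhibitor, encoded by Serping1, blocks C1r and C1s in the fluid phase, whereas CD55, CD46 and CD59 protect cells at their surface. Most plasma complement is made in the liver, but fibroblasts, epithelial cells and macrophages also secrete components.

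Of the 9 genes, 6 had an upstream window in the RefSeq promoter table (assembly GRCm38.p6), namely C3, C1s, C1ra, Cd55, Cd59a and Cd46. C4b, Cfb and Serping1 had none. The windows of C3, the hub of the cascade, and of C1ra and C1s1, which are neighbours on chromosome 6 and gave the calls reported here, are the 250 bases before the annotated start, with matches to the searched motifs in capitals.
C3, chr17:57228137-57228386 (- strand): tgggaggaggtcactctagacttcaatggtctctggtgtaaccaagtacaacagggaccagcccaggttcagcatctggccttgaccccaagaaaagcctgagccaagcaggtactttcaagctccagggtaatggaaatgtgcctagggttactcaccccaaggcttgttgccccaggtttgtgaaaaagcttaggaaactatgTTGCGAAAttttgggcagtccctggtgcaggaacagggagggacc
C1ra, chr6:124512371-124512620 (+ strand): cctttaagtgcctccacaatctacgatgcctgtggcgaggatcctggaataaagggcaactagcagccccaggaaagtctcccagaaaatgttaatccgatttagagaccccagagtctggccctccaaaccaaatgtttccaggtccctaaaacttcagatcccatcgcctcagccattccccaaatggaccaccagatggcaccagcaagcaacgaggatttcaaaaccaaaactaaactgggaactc
C1s1, chr6:124542360-124542609 (- strand): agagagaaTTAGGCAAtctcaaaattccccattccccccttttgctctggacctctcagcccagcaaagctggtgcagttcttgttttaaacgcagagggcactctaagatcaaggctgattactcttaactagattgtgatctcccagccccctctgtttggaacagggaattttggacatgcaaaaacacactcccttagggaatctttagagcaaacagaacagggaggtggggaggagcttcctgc
Searched on both strands were NF-kB as GGGA and TTCC with any 2 bases between, GAS as TTCNNNGAA, ISRE as GAAA and GAAA with any 2 bases between, AP-1 as TGANTCA and C/EBP as TTGCNNAA. The C3 window held a C/EBP match, TTGCGAAA, from 45 to 38 bases before the start. The C1s1 window held another, TTAGGCAA, from 242 to 235 bases before the start, and a second annotated C1s1 start lacked it in its own window. C1ra matched none of the searched letters. Among 32851 promoter windows of this length, 9.56% held the C/EBP letters, 7.02% GAS, 6.75% AP-1, 2.98% ISRE and 1.21% NF-kB. Outside the printed windows, Cd59a held an ISRE match, GAAAGGGAAA, and Cd55 and Cd46 held no match.

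The arrays measured 26385 to 28185 probes well above background, and no probe was saturated. Each value is the log2 of a signal over its array's 75th percentile, so 0 is a bright probe. Values under about -6 lie near or below background: the lowest value called well above background on an array was -6.71 to -6.04. Differences are SMC minus non-SMC. In the limma fit over 19848 features, with the pair as a block, 601 features (3.03%) were lower and 31 (0.156%) higher in SMC at a Benjamini-Hochberg adjusted p under 0.05, together 3.18%. The median difference over all features was 0.18, and 0.096 with median scaling. Of the targeted genes, Rb1 lay between -2.09 and 0.64 and differed by 2.02 ± 0.45 (SE, limma adjusted p = 0.113). Rb1 passed in 1 of 21 other settings, without the pair block and non-SMC line 2 (2.59, limma adjusted p = 0.00888). In that setting 1559 features were called higher. Trp53 lay between -0.36 and 0.14. Whether the Rb1 and Trp53 probes lie in deleted exons was not examined. A slide of 4 arrays, called the shared slide, carried non-SMC lines 2 and 3 beside SMC lines 1 and 2, so pair 2 alone was complete on it. Neuroendocrine markers summed to a relative signal (linear, 1 being the 75th percentile) of 229 to 350 in SMC and 20.6 to 139 in non-SMC lines, and Neurod1 was detected only in pair 2.

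Of 9 tested fibroblast markers, 6 were lower in SMC, against 3.03% of all features: Col1a1, Col1a2, Col3a1, Fn1, Pdgfrb and Sparc. All of these but Col1a2 could be tested only because they were bright in the non-SMC group. In the non-SMC lines the summed relative signal of the list, there carried mostly by these 6 genes, was 217 to 528, with 9 or 10 of 10 markers detected. In the SMC lines it was 0.556 to 2.57, with 5 or 6 detected, and Dcn or Thy1 was the brightest marker. By their brightest probes, no SMC array measured Col1a1 or Col3a1 well above background. The other markers, Dcn, Thy1, Pdgfra and Lum, overlapped between the groups. Dcn was higher in SMC line 1 (0.66) than in non-SMC line 1 (-4.58), and Thy1 differed by 0.91 ± 1.06 (limma adjusted p = 0.615). Leukocyte and macrophage markers summed to 1.90, 4.26 and 15.3 in non-SMC lines 1 to 3, with 5, 7 and 11 of 12 detected. In the SMC lines they summed to 0.178 to 1.46, with 4 to 9 detected. Cd14, found in several cell types, was the largest part of these non-SMC sums. Ptprc, the leukocyte antigen CD45, was detected at -3.54 in non-SMC line 3 and at -5.78 in SMC line 1, and the macrophage gene Adgre1 in non-SMC line 3 alone (-2.29). Lyz2, of the same list, was detected in non-SMC line 3 (-1.05) and, higher, in SMC line 3 (0.12), where it made up most of the sum. Lung epithelial markers summed to 1.46, 361 and 337 in non-SMC lines 1 to 3 and to 187, 350 and 15.8 in SMC lines 1 to 3, lowest in non-SMC line 1. Endothelial markers summed to 0.0871, 11.9 and 0.231 in non-SMC lines 1 to 3 and to 21.0, 11.2 and 0.320 in SMC lines 1 to 3. Of these 7 markers, Vwf was detected on all 6 arrays and carried the high sums, Kdr was detected on 4 and Tek on 2, and Cdh5, Pecam1, Cldn5 and Emcn on none. The part of these cell types in the complement values was not tested. In RNA from whole cultures, fewer cells of a type and less RNA per cell cannot be told apart.

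Among the tested complement genes the largest differences of the main fit were in C1ra and C1s, proteases of the C1 complex. This order depends on how dim signals are handled. After normexp background correction the regulator gene Clu (-5.88) and C3 (-4.95) differed more than C1ra (-4.34) and C1s (-3.42). With dim signals set to the lowest well-measured value, Clu differed by -7.15, C1ra by -7.02 and C1s by -6.13. Of the 7 members that could be tested, C1ra and C1s were lower in the SMC lines, none was higher, and 5 did not pass; in all features 3.03% were lower. C1ra and C1s passed the filter on dim probes only through the non-SMC group, and could be tested only because they were bright there. The same holds for Serping1, while Cd55 and Cd59a passed only through SMC, and C3 and C4b were detected on all 6 arrays. Cfb and Cd46 did not pass the filter and have values only.

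**Figure D1:**
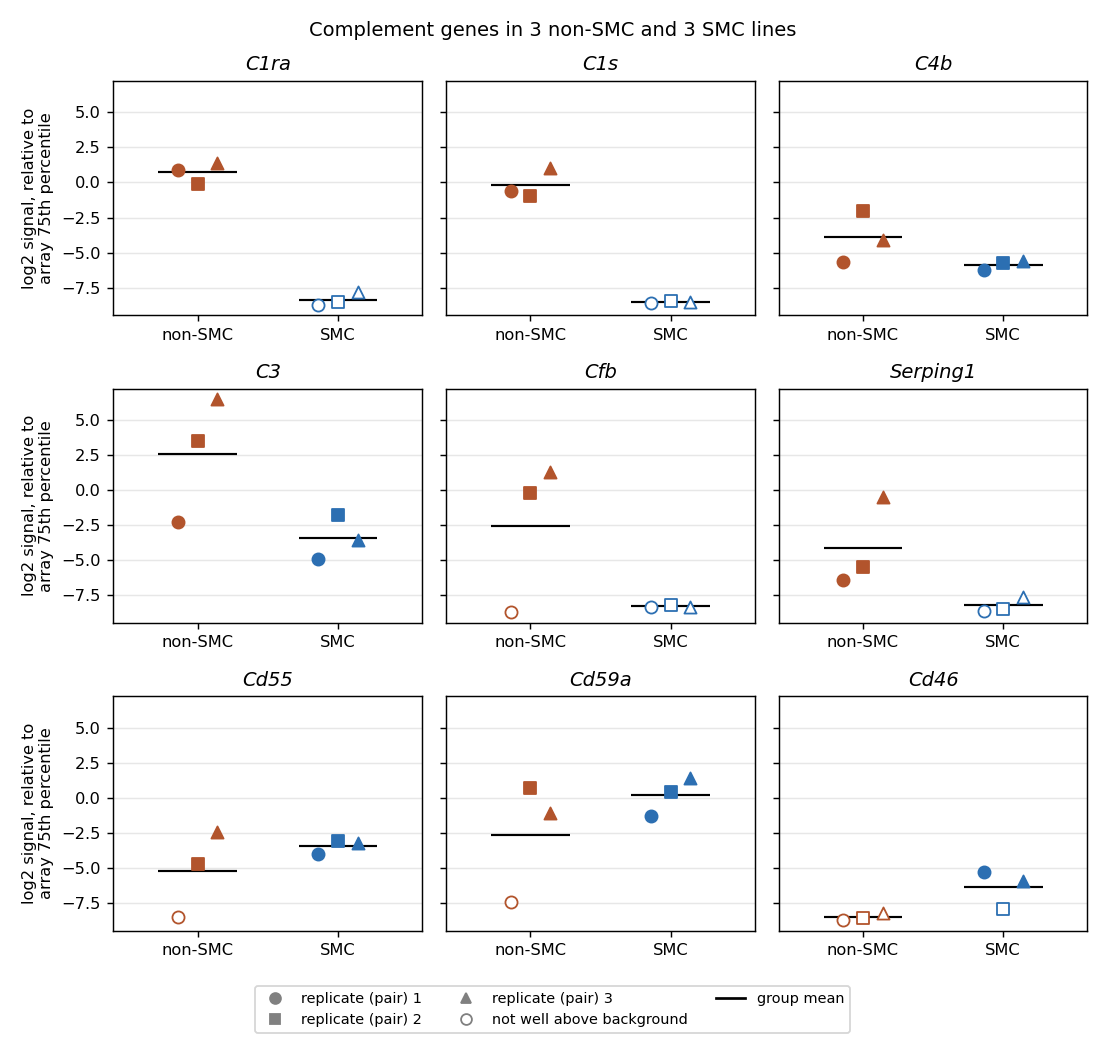
Log2 signal relative to the array's 75th percentile (y axis) for the 9 complement genes in the 3 non-SMC and 3 SMC lines, by the brightest probe. Marker shapes are the pairs, open markers were not well above background and bars are group means. C1ra and C1s are filled in each non-SMC line and open in each SMC line; heights may not be compared between genes, whose probes differ.

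C1ra, the protease that starts the classical pathway, had signals of 0.90, -0.11 and 1.38 in non-SMC lines 1 to 3. In SMC lines 1 to 3 they were -8.69, -8.53 and -7.79, none well above background. The groups were far apart, and the non-SMC lines differed from each other by under 1.5 units. The group means were 0.72 ± 0.76 and -8.34 ± 0.48 (SD, n = 3 lines each), a fitted difference of -9.06 ± 0.37 (SE, limma adjusted p = 0.00704). Because the SMC signals are only bounds, C1ra was at least 130-fold lower. This bound holds for the processed signals only: after normexp background correction with its added offset, the difference was -4.34 (adjusted p = 0.0111). The difference was -9.59, -8.42 and -9.17 in pairs 1 to 3, and -9.24 on the shared slide alone (adjusted p = 0.0152). Without pair 3 C1ra did not pass (adjusted p = 0.0619), and limma then called 0 features, with 1743 lower at an unadjusted p under 0.05.

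C1s, the protease that C1r activates, had signals of -0.59, -0.96 and 1.04 in the non-SMC lines. Its SMC signals were -8.59, -8.44 and -8.54, again never well above background. As for C1ra, non-SMC line 3 was highest and the groups did not overlap. C1s differed by -8.36 ± 0.52 (SE, limma adjusted p = 0.0124) and was at least 70.0-fold lower by the same signals, against -3.42 after normexp correction (adjusted p = 0.0222). A second C1s probe gave -3.60, -3.78 and -1.63 in the non-SMC lines and -8.20, -8.11 and -8.31 in the SMC lines. It ranked non-SMC line 3 first as well and differed by -5.20 ± 0.58 (limma adjusted p = 0.0322 with every kept probe as a feature, of which 3.21% were lower), at least 9.81-fold. Without pair 1 the difference of the first probe was -8.53 (limma adjusted p = 0.0609), and without pair 3 it was -7.74 (adjusted p = 0.0619). On the shared slide it was -8.56 (adjusted p = 0.0264).

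Around C1ra and C1s lie close relatives. C1rb, a second C1r gene next to C1s1, was also lower (-4.41 ± 0.32, limma adjusted p = 0.0153; it passed in 12 of 20 other settings), with non-SMC signals of -1.99, -3.41 and -1.45. It was detected on 1 of 3 SMC arrays, where its signals were -6.30, -7.49 and -6.30; without pair 1, without pair 3 and on the shared slide it did not pass (adjusted p = 0.0709, 0.0941 and 0.113), nor after normexp correction (-1.62, adjusted p = 0.0657). C1rl, a C1r-like gene on the other side of C1ra, differed by -1.04 ± 0.37 (adjusted p = 0.184). C1s2 was well above background on 0 of 6 arrays. Probe sequences were not used here, so whether C1ra and C1rb RNA can be told apart was not tested. Of the C1q chains, C1qb differed by -0.40 ± 0.32 (adjusted p = 0.467), and C1qa and C1qc were detected on 1 array each.

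C3, the component on which all pathways converge, varied widely among the non-SMC lines. Its signals were -2.24, 3.50 and 6.46 in non-SMC lines 1 to 3 and -4.88, -1.74 and -3.53 in the SMC lines, all well above background. Non-SMC line 3 stood highest, whereas non-SMC line 1 lay under SMC line 2, so the groups overlapped. The difference was -2.64, -5.24 and -9.99 in pairs 1 to 3. The fitted difference of -5.96 ± 1.53 (SE, 95% CI -10.2 to -1.73) did not pass across all features (limma adjusted p = 0.128). C3 passed when the slide was a block beside the pair (-5.96, adjusted p = 0.0408) and without the pair block and non-SMC line 1 (-8.36, adjusted p = 0.0400). Without the pair block and non-SMC line 3 it was -4.01 (adjusted p = 0.313), and on the shared slide -8.29 (adjusted p = 0.111). A dimmer C3 probe, not tested, gave -8.89, -5.71 and -1.47 in the non-SMC lines, the first not well above background, and -8.62, -8.50 and -8.49 in the SMC lines. By the brighter probe the non-SMC lines ranked 3, 2 and 1 and the SMC lines 2, 3 and 1. The summed leukocyte and macrophage markers ranked 3, 2 and 1 in both groups. Cd14 was the largest part of these sums in the non-SMC lines, and Lyz2 in SMC line 3. Orders of 3 lines cannot show a link with C3, and none was tested.

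Cfb, encoding factor B, the partner of C3b in the alternative pathway convertase, was detected in non-SMC lines 2 and 3 only. Its signals there were -0.23 and 1.28, against -8.68 in non-SMC line 1 and -8.30, -8.21 and -8.32 in the SMC lines. Non-SMC line 1 was as dim as the SMC lines, so a group difference rests on the other non-SMC lines. Within pairs the difference was 0.38, -7.97 and -9.60. In the fit without a filter, Cfb differed by -5.73 ± 2.18 (limma adjusted p = 0.282).

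C4b, cut by C1s to start the classical convertase, was dim in most lines. It gave -5.63, -2.02 and -4.08 in the non-SMC lines and -6.23, -5.75 and -5.58 in the SMC lines. Non-SMC line 2 was highest, and non-SMC line 1 lay among the SMC lines. The difference was -0.59, -3.73 and -1.50 in pairs 1 to 3, or -1.94 ± 0.71 overall (limma adjusted p = 0.189), and did not pass in any of 21 other settings. Its near copy C4a was well above background on 0 of 6 arrays.

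Serping1, encoding C1 inhibitor, gave -6.40, -5.45 and -0.51 in the non-SMC lines and -8.58, -8.44 and -7.59 in the SMC lines. Only the non-SMC signals were well above background. The groups did not overlap, which was so for 15.4% of all features in this direction and 22.8% in the other. Non-SMC line 3 stood apart, whereas non-SMC line 1 was no brighter than the lowest signals the SMC arrays could measure (-6.39 to -6.19), so no fold bound is given. The difference of -4.08 ± 1.10 did not pass (limma adjusted p = 0.134). It was -2.18, -2.99 and -7.09 in pairs 1 to 3, -5.53 on the shared slide (adjusted p = 0.207) and -2.28 without the pair block and non-SMC line 3 (adjusted p = 0.124).

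**Figure D2:**
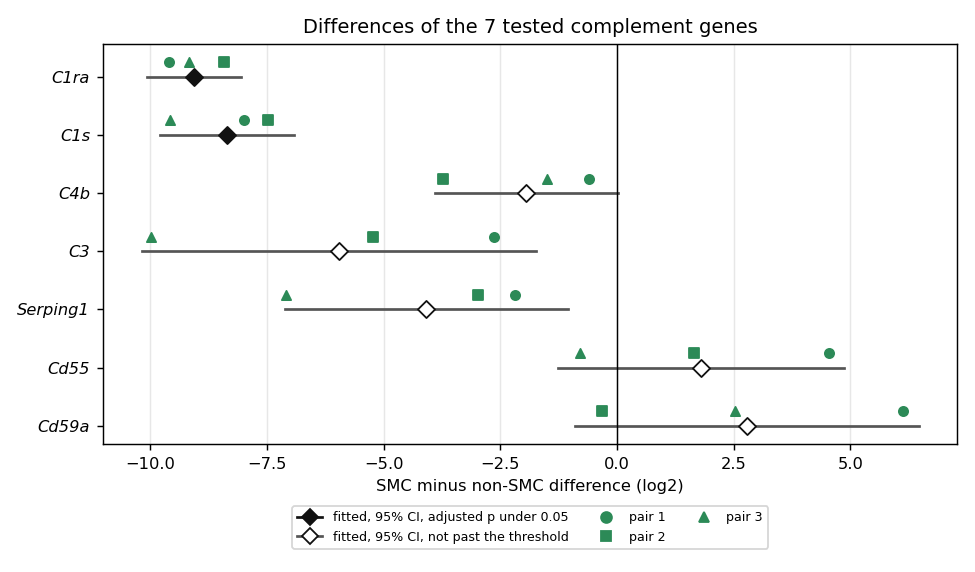
Fitted SMC minus non-SMC difference on the log2 scale (x axis) with its 95% confidence interval for the 7 tested complement genes, with the difference of each pair as a green marker. The intervals of C1ra and C1s lie between -10.1 and -6.92, and those of Cd55 and Cd59a include 0. The SMC signals of C1ra, C1s and Serping1 are bounds, so their intervals leave out how dim signals are handled. With these set to the lowest well-measured value, C1ra differed by -7.02 and C1s by -6.13, each outside its interval.

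Cd55, Cd59a and Cd46, inhibitors at the cell surface, had higher means in SMC, and none passed. Cd55, which speeds the decay of the convertases, gave -8.52, -4.75 and -2.45 in the non-SMC lines, the first not well above background. In the SMC lines it gave -3.99, -3.09 and -3.24. The highest value of all was in non-SMC line 3, so the groups overlapped, and the SMC lines were close together. The pairs gave 4.54, 1.65 and -0.79, and the fitted difference was 1.80 ± 1.11 (95% CI -1.27 to 4.87, limma adjusted p = 0.361). Without the pair block and non-SMC line 1 it was 0.16 (adjusted p = 0.904), and on the shared slide 0.060 (adjusted p = 0.973).

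Cd59a, which stops the membrane pore from forming, gave -7.45, 0.69 and -1.09 in the non-SMC lines, the first not well above background. The SMC lines gave -1.33, 0.38 and 1.44. Non-SMC line 1 was far under the other lines, which overlapped. The pairs gave 6.12, -0.31 and 2.54, and the fitted difference was 2.78 ± 1.33 (95% CI -0.90 to 6.46, limma adjusted p = 0.265). A second Cd59a probe ranked the non-SMC lines alike, at -8.65, -0.80 and -2.10, against -5.11, -0.92 and -0.67 in the SMC lines, and differed by 1.62 ± 0.79 (adjusted p = 0.266 with every kept probe as a feature). Without the pair block and non-SMC line 1 the first probe differed by 0.36 (adjusted p = 0.831), and on the shared slide by -0.27 (adjusted p = 0.869).

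Cd46, a cofactor for the cleavage of C3b and C4b, was detected in SMC lines 1 and 3 only, at -5.25 and -5.95. SMC line 2 gave -7.91 and the non-SMC lines -8.68, -8.53 and -8.24, none well above background. Values below background have no order, so the groups were not ranked. Without a filter its difference was 2.11 ± 0.64 (limma adjusted p = 0.222); no fold is given, since the SMC mean was near the lowest measurable signal.

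Across the complement system, the array held 56 of 57 listed genes, and 26 of them could be tested. Of these, 4 were lower in SMC, none was higher and 22 did not pass, against 3.03% lower and 0.156% higher of all features. At an unadjusted p under 0.05, 11.8% of all features were lower and 14.9% higher. The median difference of the 26 was -0.77, against 0.18 over all features. Lower were C1ra, C1s, C1rb and Colec12, a scavenger receptor of the collectin family. Like C1ra and C1s, C1rb and Colec12 passed the filter only through the non-SMC group, so they could be tested only because they were bright there. Colec12 gave 1.92, -1.90 and -0.64 in the non-SMC lines and was not well above background in SMC lines, at least 68.2-fold lower (-7.99 ± 0.85, limma adjusted p = 0.0316). A second Colec12 probe differed by -7.39 ± 0.91 (adjusted p = 0.0398 with every kept probe). Colec12 passed in 14 of 20 other settings, and not without pair 1, without pair 3 or after normexp correction (adjusted p = 0.0596, 0.132 and 0.0911), where its difference was -3.21.

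By role, 3 of 5 tested genes of the C1 complex and 1 of 3 of the lectin pathway were lower, against 3.03% of all features. These lower genes passed the filter only through the non-SMC group, so the filter shapes this comparison. With detection required on all 6 arrays, none of them is tested. C1ra and C1rb count separately, though whether their RNA can be told apart was not tested. None passed among 4 convertase components, 2 terminal components, 5 fluid phase regulators, 4 membrane regulators and 3 receptors. The medians of tested genes were -4.41 for the C1 complex, -4.08 for the fluid phase regulators and 2.29 for the membrane regulators. They were 1.35 for the lectin pathway, -1.72 for convertase components, -0.43 for terminal components and -0.40 for receptors. The lectin pathway genes that did not pass, Masp2 and Colec11, differed by 1.35 and 2.52 (limma adjusted p = 0.225 and 0.142). Among the fluid phase regulators, Clu, encoding clusterin, an inhibitor of pore assembly, gave -0.96, 6.15 and 5.98 in the non-SMC lines and -2.12, -2.72 and -5.45 in the SMC lines. Clu differed by -7.15 ± 2.18 (limma adjusted p = 0.153); it passed on the shared slide (-8.48, adjusted p = 0.00855) and without the pair block and non-SMC line 1 (-9.49, adjusted p = 0.0162).

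Among the other roles, C2, cut together with C4, differed by -1.49 ± 0.51 (limma adjusted p = 0.176), and Cfp, encoding properdin, by -0.10 ± 0.33 (adjusted p = 0.868). Hc, the mouse C5 gene, and C8g of the terminal pathway differed by -0.96 ± 0.45 and 0.10 ± 0.28 (adjusted p = 0.256 and 0.838). At the membrane, Susd4 differed by 2.89 ± 1.14 and Cr1l, encoding the rodent regulator Crry, by -0.75 ± 0.29 (adjusted p = 0.206 and 0.204). Cr1l was detected on all 6 arrays, between -2.69 and -0.84. Of the receptors, the integrin chain Itgb2 differed by -0.77 ± 0.36 and C1qbp by -0.40 ± 0.33 (adjusted p = 0.258 and 0.478).

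**Figure D3:**
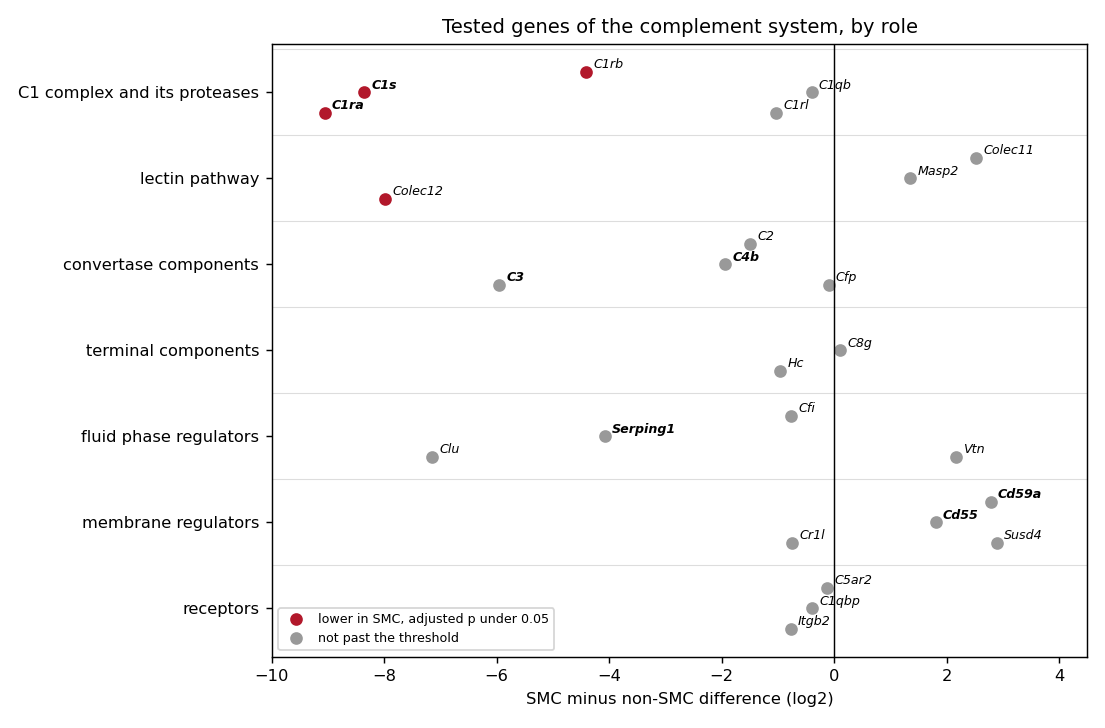
SMC minus non-SMC difference on the log2 scale (x axis) of 25 of the 26 tested complement genes, in rows by role. Red points are the 4 genes called lower (adjusted p under 0.05), grey points did not pass, and bold names are 7 of the 9 genes described singly.

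Genes of NF-kB, interferon and acute phase signalling, pathways known to induce complement genes, were listed beside them. Of 16 tested, 2 were lower in SMC (3.03% of all features) and none higher, and in 13 of them each SMC value was under each non-SMC value (15.4% of all features). Il1r1, the interleukin-1 receptor, gave 1.36, 0.82 and 2.35 in the non-SMC lines and was not well above background in SMC lines. It was at least 224-fold lower (-10.06 ± 0.42, limma adjusted p = 0.00704; 0.0619 without pair 3), or -5.03 after normexp correction (adjusted p = 0.00699). It too passed the filter only through the non-SMC group. Relb, an NF-kB subunit detected on all 6 arrays, gave 1.52, 1.65 and 2.50 in the non-SMC lines and -1.92, -1.83 and -1.15 in the SMC lines (-3.52 ± 0.28, adjusted p = 0.0180). Without pair 1 and without pair 3 Relb did not pass (adjusted p = 0.0760 and 0.117). A link between the genes of this list and the complement values was not tested.

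**Figure D4:**
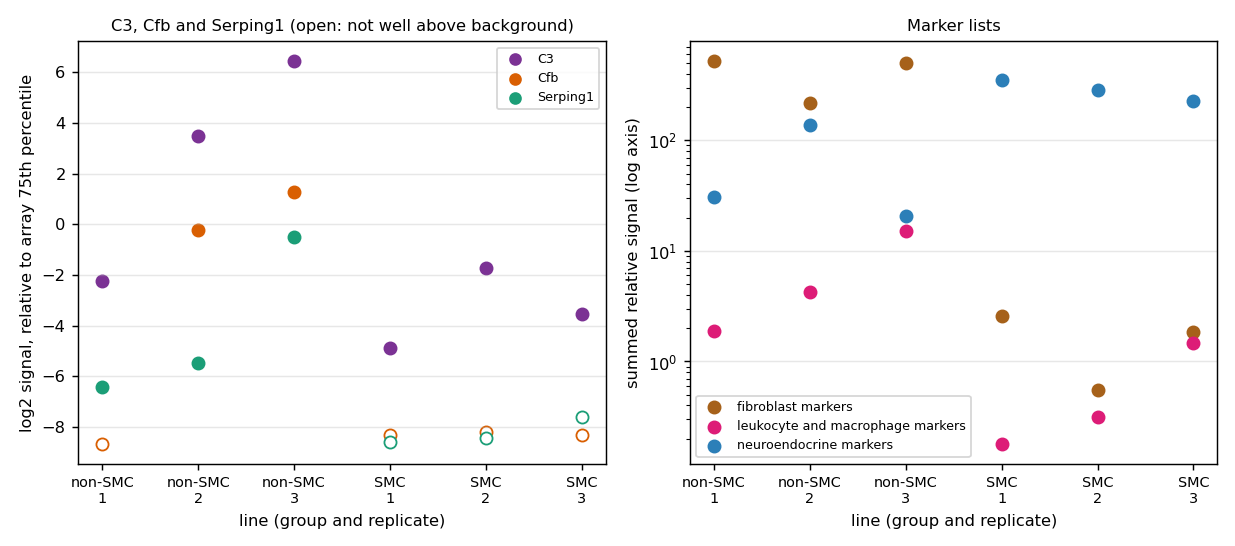
Left, log2 signal relative to the array's 75th percentile for C3, Cfb and Serping1 in each line, open where not well above background. Right, summed relative signal of the fibroblast, leukocyte and neuroendocrine markers in the same lines on a log axis, with the leukocyte sum highest in non-SMC line 3, at 15.3.

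The features with a symbol most like 3 of the genes over the 6 arrays were found by Pearson's r, with no test. For C3 they were Irak3 (0.995), Ptpn13 (0.995) and Tent5b (0.994). For Serping1 they were Lamb3 (0.9997), Trem2 (0.997) and Fmod (0.990), each highest in non-SMC line 3. For Cd55 they were Serpine2 (0.994), BC016579 (0.993) and Zfp949 (0.991), each lowest in non-SMC line 1. Such values over 6 arrays follow a few high or low lines.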

How the data were processed

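RNA of the 6 lines was hybridised to 1-colour (Cy3) arrays of design 014868. Per the file headers, Feature Extraction 10.7.3.1 read the scans (given as 10.7 by the submitters' processing notes). The deposited processed intensity is background-subtracted within the array and not normalized between arrays. The deposited log2 table was quantile-normalized, from its equal quantiles; each column correlated at 0.996 or more with its own array and at most 0.960 with another.

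Control spots (1639) and outlier spots were left out, spots of a probe were averaged, and log2 of the intensity minus the array's 75th percentile was used. Probes were kept where either group had them well above background on its 3 arrays. Of 41174 probes, 27479 got a symbol through their accession (RefSeq, GRCm38.p6; the array headers name mm9). The brightest kept probe stood for a gene. Fold bounds compare the mean of the bright group with a dim-group mean in which each array counts its own signal or the lowest well-measured one, whichever is higher. limma 3.58.1 (R 4.3.3) was fitted with pair and group, two-sided, with 2 residual and 2.07 prior degrees of freedom, and was tested on simulated data. The pairs come from the labels; within pairs 1 to 3, deviations from group means had correlations of -0.013, 0.14 and -0.0024, so the values do not show the pairing.

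A gene that the rule for named genes selects is not reported here. Members and lists were chosen with earlier results of these data known. Named were the 9 members, per role of the complement list up to 3 other genes past the threshold or else the 2 largest differences, up to 6 context genes past it, Rb1 and Trp53, and the 3 features most like C3, Serping1 and Cd55. C1rl, C1qa, C1qb, C1qc, C1s2, C4a, the marker genes named singly and the genes of the last section beyond these were picked with their values in view. Colec11, Masp2 and Cfi were picked in the same way. The alternatives tried were quantile and median scaling, normexp (offset 50), the deposited log2 values, other filters and probe rules, no pair block, left-out lines, and the slide.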

Additional observations from a re-analysis of the deposited data

Results flagged for a closer look

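In pair 2, the only male pair, Cd59a differed by -0.31 (log2, SMC minus non-SMC), while both female pairs were positive (6.12 and 2.54). In the same pair C8g differed by -0.021, also opposite in sign to the female pairs, though these were small too (0.14 and 0.19). Larger reversals in pair 2 were seen in Vtn (4.89, -4.01 and 5.62 in pairs 1 to 3) and Cfi (1.11, -4.47 and 1.05). The female pairs reversed in other genes. Cd55 was negative in pair 3 alone (4.54, 1.65 and -0.79), and Dcn was positive in pair 1 alone (5.24, -8.68 and -10.1). How many of all features reverse sign in each pair was not counted. Whether the pairs differ was not tested, and no other pair shared a slide.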

How the results depend on the processing

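Over the 9 genes 2 were called lower, over the complement list 4, and over all features 601 lower and 31 higher. With no replicate block, the paired term left out, all features gave 975 lower and 274 higher, median scaling 973 and 239, and no filter 383 and 7. Requiring detection on all 6 arrays left 135 and 4, with 0 called among the 9 genes and 0 in the list, because C1ra and C1s are then not tested. Features called higher numbered 53 with normexp background correction, 54 with every kept probe as a feature, 9 with the slide as a block and 20 on the shared slide; normexp left 2 lower in the list. Leaving out lines or pairs gave 0 to 3 lower among the 9 genes, 0 to 6 lower and 0 to 1 higher in the list, and 0 to 1147 lower and 0 to 1559 higher over all features. Features called higher were 98, 17 and 80 without the block and non-SMC line 1, non-SMC line 3 or SMC line 2, and without pair 2 there were 523 higher and 496 lower, with 5 lower in the list. Without pair 3 limma called 0 features, with 1743 lower and 924 higher at an unadjusted p under 0.05.

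The replicate block changed no call among the 9 genes. C1ra passed in 19 and C1s in 18 of 20 other settings, with differences from -9.48 to -4.34 and from -8.79 to -3.42, the smallest with normexp, and -7.02 and -6.13 with dim signals at the floor. Among the others, C3 passed in 2 of 21, and C4b, Serping1, Cd55 and Cd59a in none. Their differences kept their sign except Cd59a on the shared slide (-0.27). Sign changes of genes that never passed were C8g (-0.12 and -0.18 without the block and non-SMC line 1 or SMC line 3, -0.40 on the shared slide), Cfp (range -0.33 to 0.17, 0.099 without pair 2, 0.013 and 0.17 without the block and non-SMC line 3 or SMC line 2) and Trp53 (0.081 without pair 1, 0.031 without the block and non-SMC line 1); the cause was not tested. The signal over background limits C1ra, C1s, Serping1, Cfb and Cd46, whose values are bounds in at least 1 group.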

Other observations

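C4bp, Cd93 and Lcn2 were bright on some non-SMC arrays only and did not pass the filter on dim probes. C4bp, encoding a fluid phase inhibitor of the classical convertase, gave 2.34 and -1.37 in non-SMC lines 2 and 3, against -8.94 in non-SMC line 1 and -8.61 to -8.52 in the SMC lines. Cd93 gave -2.54, -6.17 and -1.73 in the non-SMC lines and -8.23 to -7.06 in the SMC lines, none of these well above background. Lcn2, an acute phase gene, gave -8.72, -0.70 and 4.63 in the non-SMC lines and -8.32 to -6.99 in the SMC lines. Saa3, another acute phase gene, gave -5.71, -1.83 and 3.39 in the non-SMC lines. In the SMC lines it gave -8.21 to -5.60, well above background in SMC line 2 alone. Saa3 differed by -5.37 ± 1.61 (limma adjusted p = 0.150). Lcn2 and Saa3, like C3, Cfb and Serping1, were highest in non-SMC line 3 and lowest among the non-SMC lines in line 1. Vtn, encoding vitronectin, an inhibitor of pore assembly, was detected in non-SMC line 2 alone among the non-SMC lines (-0.95) and in all 3 SMC lines (-4.95 to -2.61).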
